A study of Rattus norvegicus with 12 samples.

Results

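Single-sided deafness leaves an animal with 1 working ear. The account here is of the left against the right inferior colliculus (IC) of rats deafened on the right side, which are 6 of the 12 arrays in the series. The members were chosen by their titles: 3 arrays of left IC and 3 arrays of right IC from single-sided deaf rats, each with values for 18166 genes. All rats were of the SD strain, with no genetic modification named. The right cochlea was ablated in 20 rats, and another 20 were sham-operated, meaning that the skin behind the ear was cut and the bony bulla was not drilled. Tissue was taken 2 weeks later, and the sham-operated rats gave 3 arrays of left IC and 3 of right IC, used here as the background. Nothing in the labels tells single animals from pools, or says that equal numbers on the left and right come from the same rats. The p-values therefore reflect only how much these arrays vary, part of which may be technical.

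The IC is the midbrain station where the ascending auditory pathways of the brainstem converge, and its main excitatory drive comes from the opposite ear. After loss of the right cochlea, the left IC is therefore the side that lost its main input, and the right IC is the side still driven by the intact left ear. In neurons, synaptic activity raises calcium and cyclic AMP, which act through the transcription factor CREB on immediate early genes such as Fos and Egr1 and on secreted products such as Vgf and Scg2. Levels of such genes are widely read as a record of recent drive in auditory nuclei.

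The labels are not uniform about the tissue. Hippocampus appears in the title of the series and in each array's description, which for deaf arrays also speaks of a noise group, but the IC and cochlear ablation are named everywhere else. Of 23 measured genes of the midbrain tectum, 15 had a mean over the 6 deaf arrays above the median gene, among them the tectal transcription factors Tcf7l2, at 10.31 (left) and 10.34 (right), and Tfap2d, at 9.61 and 9.66 (log2 intensity). Of 17 forebrain and hippocampal genes, 7 did, and the cortical and hippocampal neuron factors Neurod6, at 3.25 and 3.38, and Tbr1, at 4.42 and 4.41, did not. These named genes were picked after their values were seen, and other members of both lists lay on the other side of the median gene. The counts and examples do not settle the tissue. The arrays were taken as IC, as most of the labels name it.

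The study's design sets the deprived side against the driven side within the deaf rats. No gene passed an adjusted p of 0.05 in that comparison (limma, Benjamini-Hochberg over 18166 genes, 0.00% called). The smallest adjusted p was 0.133. At an unadjusted p under 0.05, 346 genes were lower on the left (1.90% of all genes) and 261 were higher (1.44%). The 3 left and 3 right arrays did not overlap for 1510 genes (8.31%), with the left side lower for 832 (4.58%) and higher for 678 (3.73%). The median difference over all genes was -0.01, and 52.2% of genes lay below 0. A difference of at least 0.5 in either direction was seen for 69 genes (0.380%), against 152 (0.837%) between the sides of sham-operated rats, a higher count in the sham-operated rats. The right sham-operated arrays stood apart from each other: on the first principal component, with 21.1% of the variance, arrays 1 and 3 of that group lay at the opposite ends of all 12, at -15 and 27.3. Leaving out right sham-operated array 1 moved the sham count at an unadjusted p under 0.05 from 471 lower and 429 higher to 930 each. Among the 9083 genes at or above the median gene, 2 differed by that much in deaf rats, Vgf and Sprr1a, and 3 did in sham-operated rats. For 1 gene alone, relabelling 3 and 3 arrays in an exact permutation test gives p of 0.1 at the smallest. On simulated data of 18166 genes, the fit called 94 of 100 genes changed 2-fold and 61 of 100 changed 1.5-fold, with 6 false calls among the unchanged genes. The simulation changed all of these genes at once and drew independent noise, without the spread between whole arrays seen above. Its rates may therefore be too high for these data, and a gene changed alone was not simulated.

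**Figure D1:**
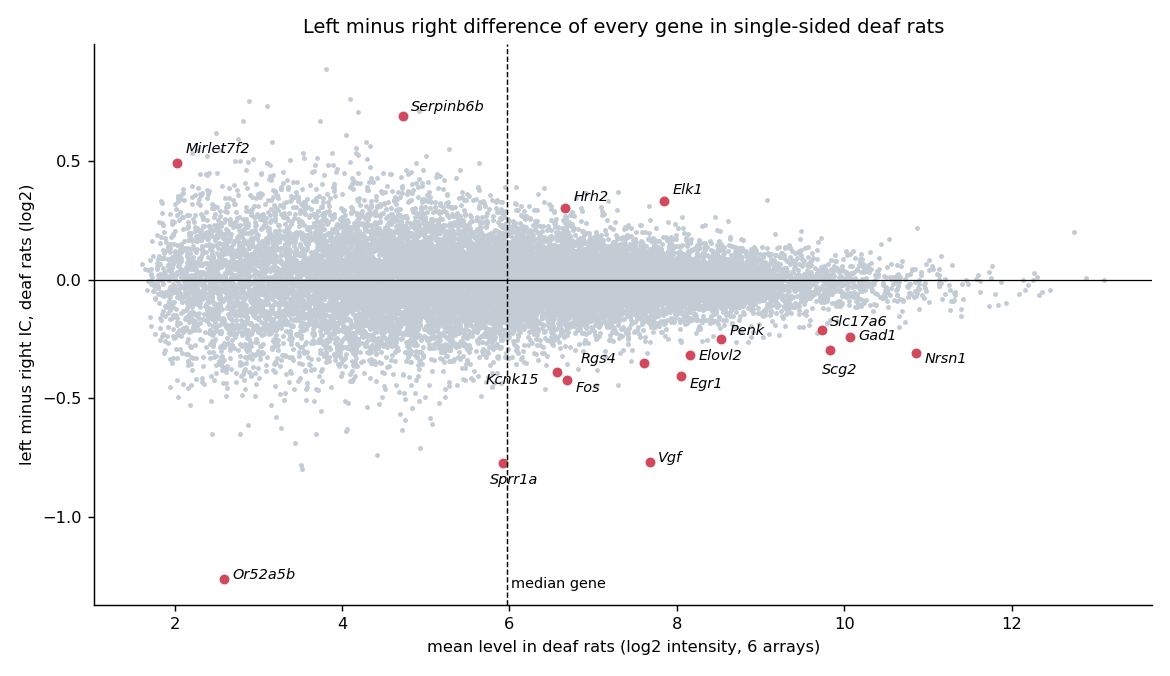
Left minus right difference of every gene in deaf rats (vertical, log2) against its mean level on the 6 deaf arrays (horizontal, log2 intensity), with the genes discussed named. Among genes brighter than the median gene (dashed line), Vgf at -0.77 stands below the cloud, and Sprr1a, at the same difference, lies at the line.

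Vgf had the lowest p of all bright genes, where bright means a mean over the 12 arrays at or above the median gene, 5.97. It encodes a secreted neuronal precursor that is cut into several peptides and is induced by neurotrophins and synaptic activity (Entrez gene 29461). On the left deaf arrays Vgf read 7.09, 7.28 and 7.51, and on the right deaf arrays 8.09, 8.01 and 8.09 (log2 intensity). The sham-operated arrays read 8.22, 8.31 and 7.97 on the left and 8.02, 8.10 and 8.07 on the right. All 3 left deaf arrays lay below each of the other 9 arrays, and the right deaf arrays lay within the range of the sham-operated ones. The mean was 7.29 ± 0.21 on the left and 8.06 ± 0.04 on the right (SD, n = 3 each), a difference of -0.77 (SE 0.11), or 1.70-fold more signal on the right. The adjusted p was 0.133 with limma over all genes. Among the 9083 bright genes alone it was 0.0481, and with a mean-variance trend and robust estimation over all genes 0.0129. It was 0.271 with array weights and 1.00 with only the 6 deaf arrays in the fit. Leaving out 1 array at a time gave differences from -0.88 to -0.67 and adjusted p from 0.135 to 0.765.

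Sprr1a, a small proline-rich protein that neurons induce when their axons are injured (Entrez gene 499660), had a like difference. It read 5.41, 5.51 and 5.68 on the left deaf arrays and 6.19, 6.27 and 6.45 on the right ones. Sham-operated arrays read 6.23, 6.11 and 5.93 on the left and 6.33, 6.35 and 5.94 on the right. Again the left deaf arrays lay below all 9 others. They also lay below the median gene, 5.97, so Sprr1a counted as bright only through the other groups. The difference was -0.77 (SE 0.13), 1.71-fold more signal on the right, with an adjusted p of 0.309 (limma). It stayed between -0.84 and -0.70 when 1 array at a time was left out.

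These promoters are shown because Vgf and Scg2 are textbook CREB targets and genes of the Sprr1 family are known AP-1 targets. The letters marked are those by which such activity-dependent factors are usually recognised. The genes were picked for this and for their side differences. Matches in them were therefore likely beforehand and are no support for a result. Each sequence is 160 bases that end just before the annotated start (RefSeq, build GRCr8), 5′ to 3′ on the gene's strand. Capitals mark a full cyclic AMP response element, TGACGTCA, which is the CREB site, or an AP-1 site, TGAGTCA, which Fos and Jun proteins bind.
Vgf, chr12:25277021-25277180, minus strand: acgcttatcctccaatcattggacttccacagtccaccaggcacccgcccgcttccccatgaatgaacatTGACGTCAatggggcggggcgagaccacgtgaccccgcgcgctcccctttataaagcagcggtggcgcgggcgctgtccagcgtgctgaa
Scg2, chr9:88256867-88257026, minus strand: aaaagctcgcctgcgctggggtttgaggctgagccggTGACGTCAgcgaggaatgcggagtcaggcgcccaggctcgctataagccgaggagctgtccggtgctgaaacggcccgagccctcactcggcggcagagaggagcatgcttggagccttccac
Sprr1a, chr2:180752626-180752785, minus strand: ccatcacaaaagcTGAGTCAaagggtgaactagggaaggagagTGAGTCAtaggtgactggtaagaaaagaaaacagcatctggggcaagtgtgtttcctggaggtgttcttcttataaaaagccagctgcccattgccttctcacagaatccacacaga
The element began 90 bases before the start in Vgf and 123 bases before it in Scg2. In Sprr1a the AP-1 letters began 147 and 117 bases before the start. On either strand, TGACGTCA was in 612 of 33469 promoter windows of 300 bases (1.83%), and the AP-1 letters TGACTCA, whose other strand reads TGAGTCA, in 1550 (4.63%). Among activity-regulated effector genes, 6 of 24 windows held TGACGTCA (25.0%), from 5 of the 17 genes with a window: Crem, Dusp1, Plk2, Scg2 and Vgf. Among neuropeptide genes 5 of 21 windows did (23.8%), those of Cartpt, Scg2, Sst, Ucn and Vgf, and among immediate early factors 3 of 14 (21.4%), those of Ier2, Jund and Maff. The AP-1 letters were in 1 of the 24 effector windows (4.17%), that of Gpr3, in 1 of the 21 neuropeptide windows (4.76%), that of Nts, and in 0 of the 14. The chosen Vgf and Scg2 are part of the effector and neuropeptide counts. The axon growth and injury list, which holds Sprr1a, was not counted. A match describes letters and not binding, and the arrays did not measure binding.

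**Figure D2:**
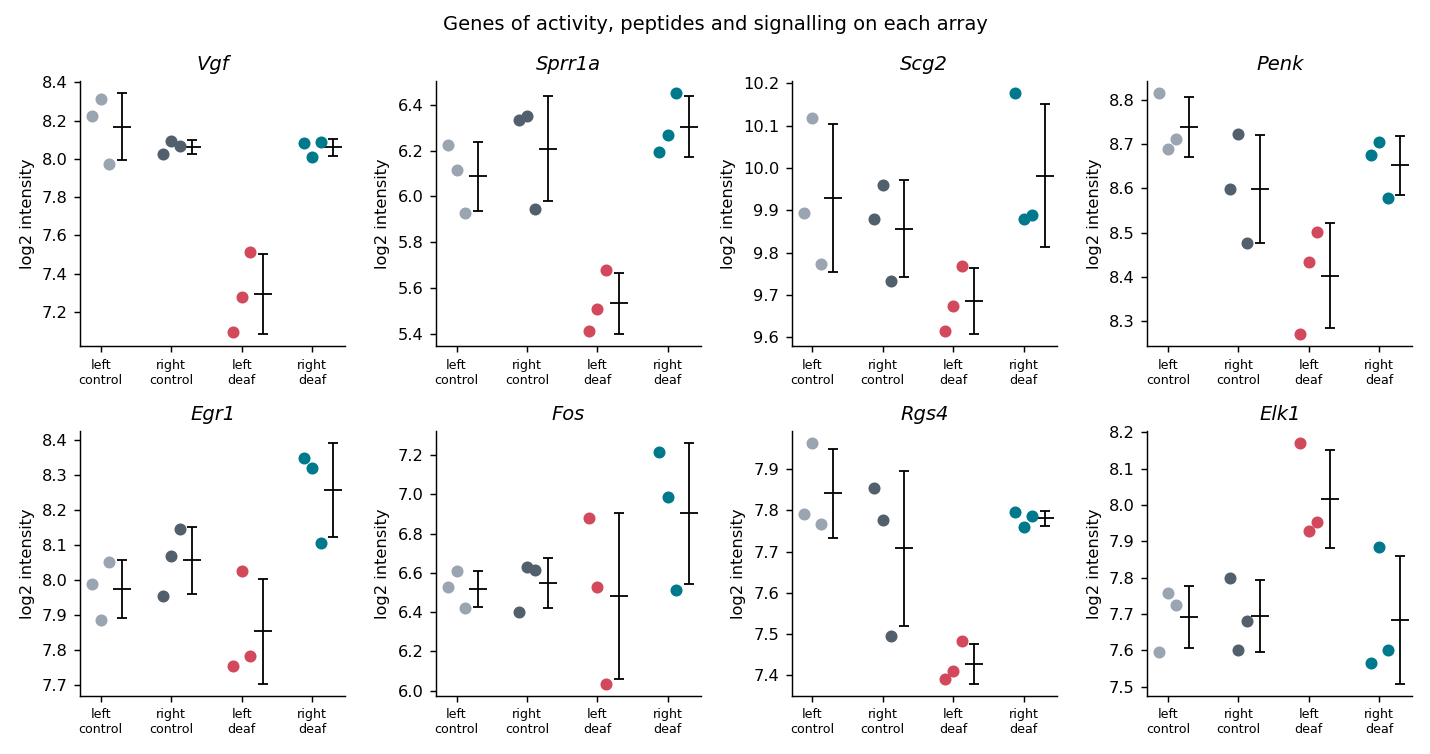
Level of 8 genes on each of the 12 arrays (vertical, log2 intensity, a separate axis for each gene that does not start at 0), with the mean and SD of each group of 3 as a bar beside the points. For Vgf, Sprr1a and Rgs4 the 3 left deaf arrays lie below all the others, for Elk1 above all the others, and for Fos the left and right deaf arrays overlap.

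Transcription factors of the immediate early class leaned to the same side. Of 19 measured, 16 were lower on the left, beside 52.2% of all genes. In sham-operated rats 11 of the 19 were lower, beside 50.4% of all genes. The median difference was -0.07, against -0.01 over all genes and -0.01 for the list in sham-operated rats. At an unadjusted p under 0.05, 2 were lower, Egr1 and Egr3 (1.90% of all genes), and 0 higher (1.44% of all genes). Egr1, a zinc finger factor that follows synaptic drive, read 7.75, 8.03 and 7.78 on the left and 8.35, 8.32 and 8.10 on the right deaf arrays. The sides did not overlap, and the sham-operated arrays, from 7.89 to 8.15, overlapped both. The difference was -0.40 (SE 0.10), with an adjusted p of 1.00 (limma). Egr3, its relative, read 5.58, 5.65 and 5.67 against 5.87, 5.73 and 6.05, a difference of -0.25 (SE 0.09) without overlap, and of -0.17 without right deaf array 3. Egr2 also did not overlap, at 4.53, 4.61 and 4.42 against 4.71, 4.81 and 4.88, with a difference of -0.28 (SE 0.16). Its probe was dim, near the lower quartile of all values, 4.47, and most Egr3 values lay below the median gene, 5.97. Of the 19 members, 9 had a mean over the deaf arrays at or above the median gene. Egr4 overlapped, with a difference of -0.28 (SE 0.13).

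Fos, the AP-1 component most often used to map activity, varied more within a side than between sides. It read 6.88, 6.53 and 6.04 on the left and 7.21, 6.99 and 6.51 on the right deaf arrays. Within each side array 1 was highest and array 3 lowest, while the 6 sham-operated arrays stayed between 6.40 and 6.63. Its difference was -0.42 (SE 0.20), and it was -0.62 without left deaf array 1 and -0.20 without left deaf array 3. Npas4, the neuron-specific early factor, differed by -0.30 (SE 0.21), and from -0.46 to -0.04 when 1 array was left out. Atf3, a factor of stress and axon injury, was the member with the highest difference, at 0.34 (SE 0.23), and from 0.18 to 0.61 when 1 array was left out. The level of the whole list, the mean of its members after each gene is centred on its own 12-array mean, was 0.12, -0.03 and -0.14 on the left and 0.20, 0.05 and -0.00 on the right deaf arrays. The sides overlapped, with array 1 highest and array 3 lowest on both. With 1 deaf array left out the median ran from -0.16 to -0.01. Without left deaf array 3 it was -0.01 with 10 of 19 members lower, and without right deaf array 1 it was -0.02 with 12 lower, so the count of 16 rested in part on single arrays.

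Effector genes downstream of activity were more even between arrays. Of 22 measured, 18 were lower on the left (52.2% of all genes), with a median difference of -0.13. In sham-operated rats 14 were lower (50.4% of all genes), with a median of -0.03. At an unadjusted p under 0.05, 4 were lower in deaf rats, Vgf, Scg2, Gpr3 and Dusp5 (1.90% of all genes), and 0 higher (1.44%). In sham-operated rats 2 were lower at that threshold, Dusp5 and Inhba (2.59% of all genes), and 0 higher. The list level was -0.07, -0.11 and -0.08 on the left and 0.13, 0.06 and 0.01 on the right deaf arrays, without overlap. Sham-operated arrays lay between -0.02 and 0.05. With 1 deaf array left out, 16 to 20 members were lower and the median ran from -0.16 to -0.12, while the count past an unadjusted p of 0.05 ran from 1 to 4. It was 1 without left deaf array 1 and 1 without right deaf array 1. Levels of the potassium channel list (left lower) and the cerebellar list (left higher) also did not overlap between the deaf sides. Those of the rest of the 33 lists did overlap. For single genes the share without overlap was 8.31%, and the list levels were not tested.

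Scg2, secretogranin II, is a granule protein and the precursor of secretoneurin. It read 9.61, 9.67 and 9.77 on the left and 10.18, 9.88 and 9.89 on the right deaf arrays. The sides did not overlap, and the sham-operated arrays, from 9.73 to 10.12, overlapped both. The difference was -0.30 (SE 0.11), or 1.23-fold more signal on the right, and it was -0.20 without right deaf array 1. Gpr3, a receptor that raises cyclic AMP without a known ligand, differed by -0.38 (SE 0.16) with overlapping sides, and by -0.23 without left deaf array 1. Dusp5, a nuclear phosphatase that acts on ERK, differed by -0.21 (SE 0.09) in deaf and by -0.22 in sham-operated rats. Arc, which acts in synaptic AMPA receptor removal, overlapped between sides and differed by -0.29 (SE 0.14), or -0.17 without right deaf array 2. Bdnf, the neurotrophin, differed by -0.14 (SE 0.12), or -0.04 without right deaf array 1. Nptx1, a secreted pentraxin of excitatory synapses, was the highest of the list at 0.16 (SE 0.09).

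**Figure D3:**
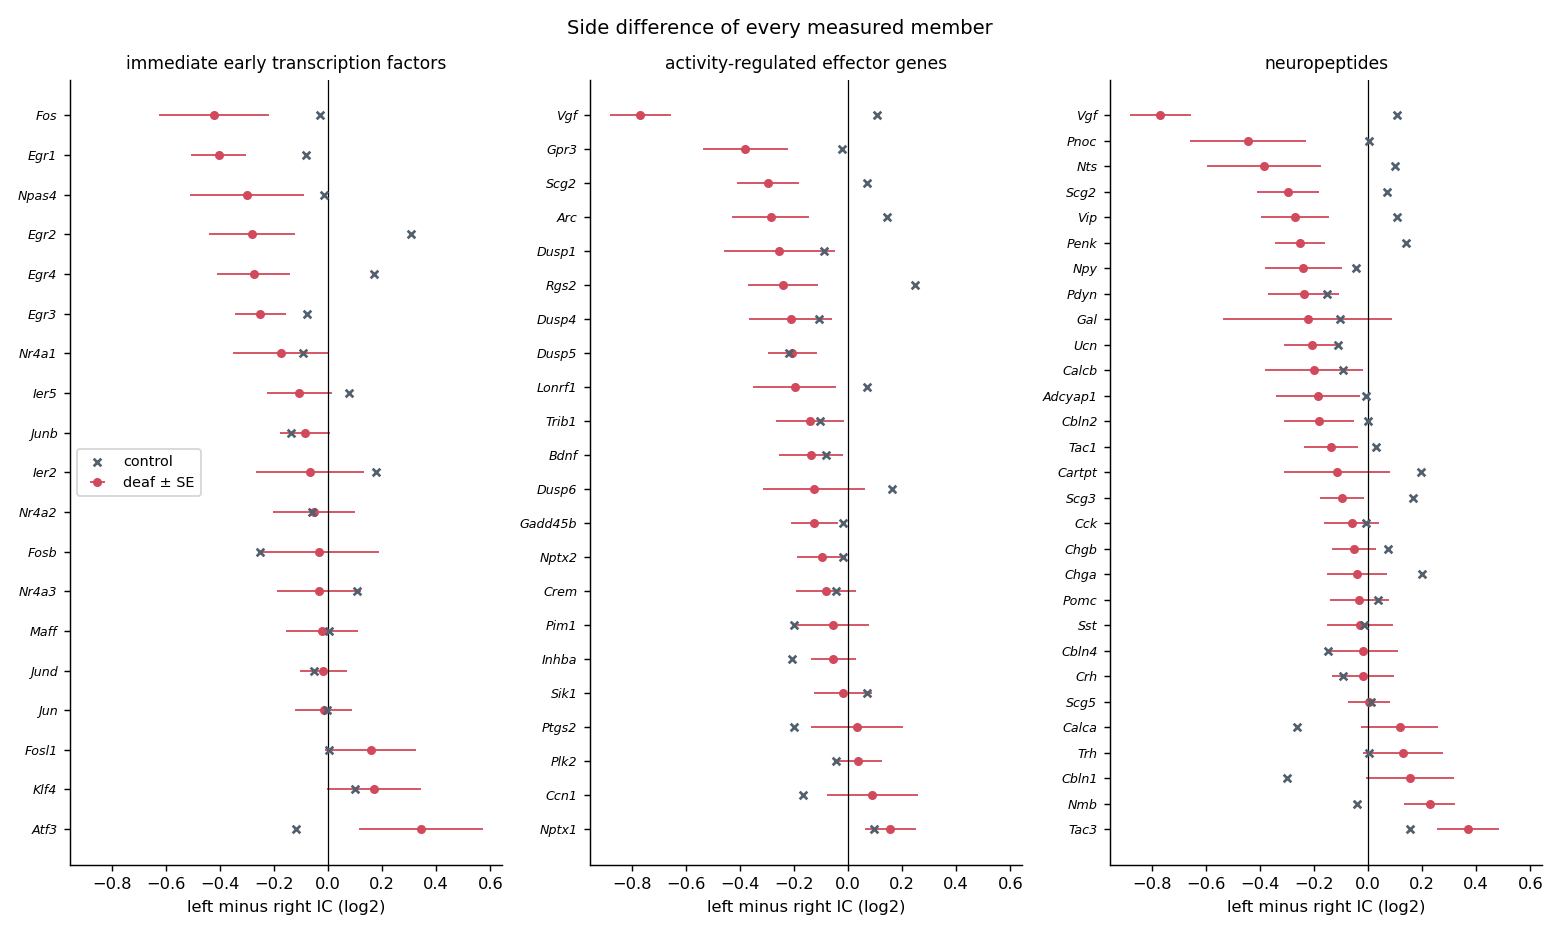
Left minus right difference of each measured member of 3 gene lists (horizontal, log2), with red points and bars for deaf rats (± SE of the fit) and grey crosses for sham-operated rats. Most red points lie left of 0, with Vgf farthest at -0.77, and Tac3 and Nmb are at the other end of the neuropeptides.

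Neuropeptides and granule proteins formed the third list that leaned left-low, and it shares Vgf and Scg2 with the effectors. Of 29 measured, 23 were lower on the left (52.2% of all genes), with a median difference of -0.12. In sham-operated rats 13 were lower (50.4% of all genes), with a median of 0.00. At an unadjusted p under 0.05, 3 were lower, Vgf, Penk and Scg2 (1.90% of all genes), and 2 higher, Tac3 and Nmb (1.44%). Penk, the precursor of the enkephalin opioid peptides, read 8.27, 8.43 and 8.50 on the left and 8.68, 8.70 and 8.58 on the right deaf arrays. The sides did not overlap, and 1 right sham-operated array, at 8.48, lay among the left deaf values. The difference was -0.25 (SE 0.09). Pnoc, the nociceptin precursor, had a wider spread: 6.52, 7.43 and 7.27 against 7.67, 7.29 and 7.61, a difference of -0.44 (SE 0.22) with overlap. It was -0.17 without left deaf array 1. Nts (neurotensin), Vip and Pdyn (prodynorphin) overlapped too, with differences of -0.38 (SE 0.21), -0.27 (SE 0.12) and -0.24 (SE 0.13). Npy did not overlap and differed by -0.24 (SE 0.14). Without left deaf array 1, Nts, Vip and Npy differed by -0.23, -0.17 and -0.13, and without left deaf array 3 Pdyn differed by -0.16.

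The tachykinin precursor Tac3 went the other way. It read 5.41, 5.55 and 5.90 on the left and 5.19, 5.36 and 5.19 on the right deaf arrays, a difference of 0.37 (SE 0.11) without overlap. Without left deaf array 3 the difference was 0.23. The sham-operated sides did not overlap either, with the left higher by 0.16. Nmb, neuromedin B, a dim probe, read 4.12, 4.14 and 4.11 against 3.78, 3.84 and 4.07, a difference of 0.23 (SE 0.10). The neuropeptide level was -0.19, -0.08 and 0.03 on the left and 0.03, 0.03 and 0.06 on the right deaf arrays, so left array 3 overlapped the right side. Without right deaf array 3 the median difference was -0.07, with 21 of 29 lower. The count of members past an unadjusted p of 0.05 and lower was 1 without left deaf array 1 and 7 without left deaf array 3.

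Outside these lists, 12 bright genes lower on the left are named by a rule of smallest p among the 19 that did not overlap and differed by at least 0.3. Besides Vgf, Sprr1a and Egr1 they were Elovl2, Inka2, Rgs4, Ildr2, Spred3, Kcnk15, Nelfa, Alpl and Nrsn1, all with an adjusted p of 1.00 (limma). Rgs4, which shortens signalling from Gi- and Gq-coupled receptors, was the tightest: 7.39, 7.41 and 7.48 on the left against 7.80, 7.76 and 7.79 on the right deaf arrays, a difference of -0.35 (SE 0.10). All 3 left deaf arrays lay below the other 9, the lowest of which was a right sham-operated array at 7.50. Elovl2, an elongase of very long polyunsaturated fatty acids, read 7.99, 8.09 and 7.93 against 8.28, 8.34 and 8.34, a difference of -0.32 (SE 0.07), and its left deaf arrays also lay below the other 9. Nrsn1, a neuronal vesicle membrane protein, read 10.54, 10.83 and 10.76 against 10.98, 10.93 and 11.15, a difference of -0.31 (SE 0.10).

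Inka2, an inhibitor of the kinase PAK4, differed by -0.36 (SE 0.09), and Spred3, a member of a family that restrains Ras-ERK signalling, by -0.31 (SE 0.09). The 2-pore-domain potassium channel gene Kcnk15 differed by -0.39 (SE 0.11). For Inka2, Spred3, Kcnk15 and Nrsn1 too, the left deaf arrays lay below the other 9, a pattern held by 111 genes in all (0.611%). Ildr2 differed by -0.38 (SE 0.11), and Alpl, the tissue-nonspecific alkaline phosphatase, by -0.31 (SE 0.10). Nelfa, a subunit of the complex that pauses RNA polymerase II, had instead its 3 right deaf arrays above the other 9, at 7.81, 7.84 and 7.76 against 7.44, 7.37 and 7.66 on the left, a difference of -0.31 (SE 0.09). Its sham-operated sides did not overlap either, with the same direction, at -0.18. The 3 right deaf arrays lay above the other 9 for 60 genes (0.330%).

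Higher on the left, 8 bright genes met the same rule. Elk1, a transcription factor that ERK phosphorylates at serum response elements, read 8.17, 7.93 and 7.95 on the left and 7.57, 7.89 and 7.60 on the right deaf arrays. Its left deaf arrays lay above all 9 others, a pattern of 75 genes (0.413%), but left array 2 and right array 2 were only narrowly apart. The difference was 0.33 (SE 0.11), 1.26-fold more signal on the left. Hrh2, the histamine H2 receptor, read 6.67, 6.86 and 6.92 against 6.51, 6.48 and 6.56, a difference of 0.30 (SE 0.10). Spr, sepiapterin reductase, which makes the cofactor of monoamine synthesis, differed by 0.35 (SE 0.13), and the zinc finger gene Rbak by 0.33 (SE 0.13). The other four were Snu13l1 at 0.36 (SE 0.10), Rps23l1 at 0.34 (SE 0.11), Rpl28l1 at 0.37 (SE 0.14) and Rbbp4l1 at 0.31 (SE 0.17). Their symbols mark them as copies related to other genes, and probes for such copies can share target sequence with the parent gene.

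Below the median gene, 105 genes lower and 76 genes higher on the left met the rule, and the 4 of smallest p in each direction are given. Lower were Cenpu at -0.49 (SE 0.11), Ptx3 at -0.44 (SE 0.10), Gbp4 at -0.43 (SE 0.10) and Klf1 at -0.57 (SE 0.13). Ptx3, a long pentraxin of innate immunity, had the same lean in sham-operated rats, at -0.41. Higher were Serpinb6b at 0.69 (SE 0.14), Prss57 at 0.38 (SE 0.09), Car13l1 at 0.53 (SE 0.14) and Foxs1 at 0.49 (SE 0.14). Serpinb6b was higher on the left in sham-operated rats too, at 0.34, without overlap. Or52a5b and Mirlet7f2 shared the smallest adjusted p with Vgf, 0.133 (limma), and lie outside the rule, which skips olfactory receptors and microRNA genes. The olfactory receptor gene Or52a5b read 2.03, 2.10 and 1.75 on the left and 3.11, 3.11 and 3.44 on the right, a difference of -1.26 (SE 0.18), near the lower end of the arrays' range. Mirlet7f2, a let-7 microRNA precursor gene, read 2.36, 2.23 and 2.23 against 1.77, 1.83 and 1.73, a difference of 0.49 (SE 0.07).

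Genes of inhibition and excitation are the classic subjects of work on the deafferented IC. Over all genes, 1.90% were lower and 1.44% higher at an unadjusted p under 0.05, and 52.2% lay below 0. At such shares, lists of this size hold few members past that threshold. Of 12 measured genes of GABA synthesis, packaging, uptake and breakdown, 7 were lower on the left, with a median of -0.02, and 0 passed an unadjusted p of 0.05 in either direction. Gad1, the larger of the GABA-making decarboxylases, read 9.82, 9.99 and 10.03 on the left and 10.21, 10.19 and 10.17 on the right deaf arrays, which did not overlap. Its difference was -0.24 (SE 0.12), and the right sham-operated arrays alone spanned 9.85 to 10.35. Gad2 also did not overlap and differed by -0.09 (SE 0.08), or -0.05 without right deaf array 1. Of 11 GABA-A receptor subunits, 8 were lower, with a median of -0.06, and Gabra5, the subunit of extrasynaptic receptors, was the 1 past an unadjusted p of 0.05. It read 8.07, 8.18 and 8.28 against 8.42, 8.33 and 8.55, a difference of -0.26 (SE 0.09), with the same lean in sham-operated rats, at -0.14.

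Of 9 glycine signalling genes, 7 were lower in deaf rats (52.2% of all genes), with a median of -0.04 and 0 past an unadjusted p of 0.05. In sham-operated rats 6 of them were lower (50.4% of all genes), with a median of -0.08. Among 20 genes of glutamate release and ionotropic receptors, 11 were lower in deaf rats, with a median of -0.02 and 0 past that threshold in either direction. Slc17a6, the vesicular glutamate transporter VGLUT2 of the midbrain, read 9.56, 9.69 and 9.63 on the left and 9.82, 9.74 and 9.96 on the right deaf arrays. Those sides did not overlap, and the difference was -0.21 (SE 0.10). Slc17a7, the VGLUT1 gene that the cerebellum and cortex express, had means of 5.10 (left) and 4.80 (right) and differed by 0.30 (SE 0.26). Grin2d, an NMDA receptor subunit, differed by 0.29 (SE 0.18), or 0.16 without right deaf array 1.

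Channel genes were mixed. Of 26 potassium channel genes, 17 were lower (52.2% of all genes), with a median of -0.04. At an unadjusted p under 0.05, 2 were lower, Kcnk15 and Kcnk1 (1.90% of all genes), and 0 higher (1.44%). Kcnk1, another 2-pore-domain channel, read 8.21, 8.39 and 8.34 against 8.52, 8.50 and 8.65, a difference of -0.24 (SE 0.09) without overlap. Kcnc2, a Kv3 channel of fast-spiking neurons, differed by -0.14 (SE 0.10). Of 25 HCN, sodium and calcium channel genes, 10 were lower, with a median of 0.01, and of 13 calcium-binding proteins 10 were lower, with a median of -0.01. Neither list had a member past an unadjusted p of 0.05. Synaptic vesicle genes had 15 of 26 lower, a median of -0.03 and 0 past it.

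Axon growth and injury genes, the list of Sprr1a, lay as a whole near the median gene. Of 23 measured, 13 were lower (52.2% of all genes), and the median was -0.02. An unadjusted p of 0.05 was passed by 2, Sprr1a and Ecel1, both lower (1.90% of all genes). Ecel1, a membrane peptidase that injured neurons induce, read 5.19, 5.13 and 5.38 on the left and 5.56, 5.55 and 5.85 on the right deaf arrays. Its left deaf arrays lay below the other 9, and the difference was -0.42 (SE 0.13). Gap43, the growth cone protein, differed by -0.14 (SE 0.09), with overlap, and by -0.06 without right deaf array 3. Of 19 genes of neurotrophins, growth factors and their receptors, 13 were lower, the median was -0.08, and 0 passed. The sham-operated rats had a like median there, -0.06, with 14 of 19 lower, where 50.4% of all genes were below 0.

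Among 23 glucocorticoid-responsive genes 13 were lower (52.2% of all genes), and the median was -0.01. Zbtb16 and Lcn2 were lower past an unadjusted p of 0.05 (1.90% of all genes), at -0.24 (SE 0.09) and -0.30 (SE 0.13). Lcn2 was -0.18 without right deaf array 1. Of 22 respiratory chain genes 15 were lower, with a median of -0.03. Ndufa2, a complex I subunit, was the 1 past that threshold, lower at -0.25 (SE 0.12). Clock, complement, interferon-response, perineuronal net, metabotropic glutamate receptor and neurofilament lists had 0 members past it, with medians between -0.02 and 0.02.

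**Figure D4:**
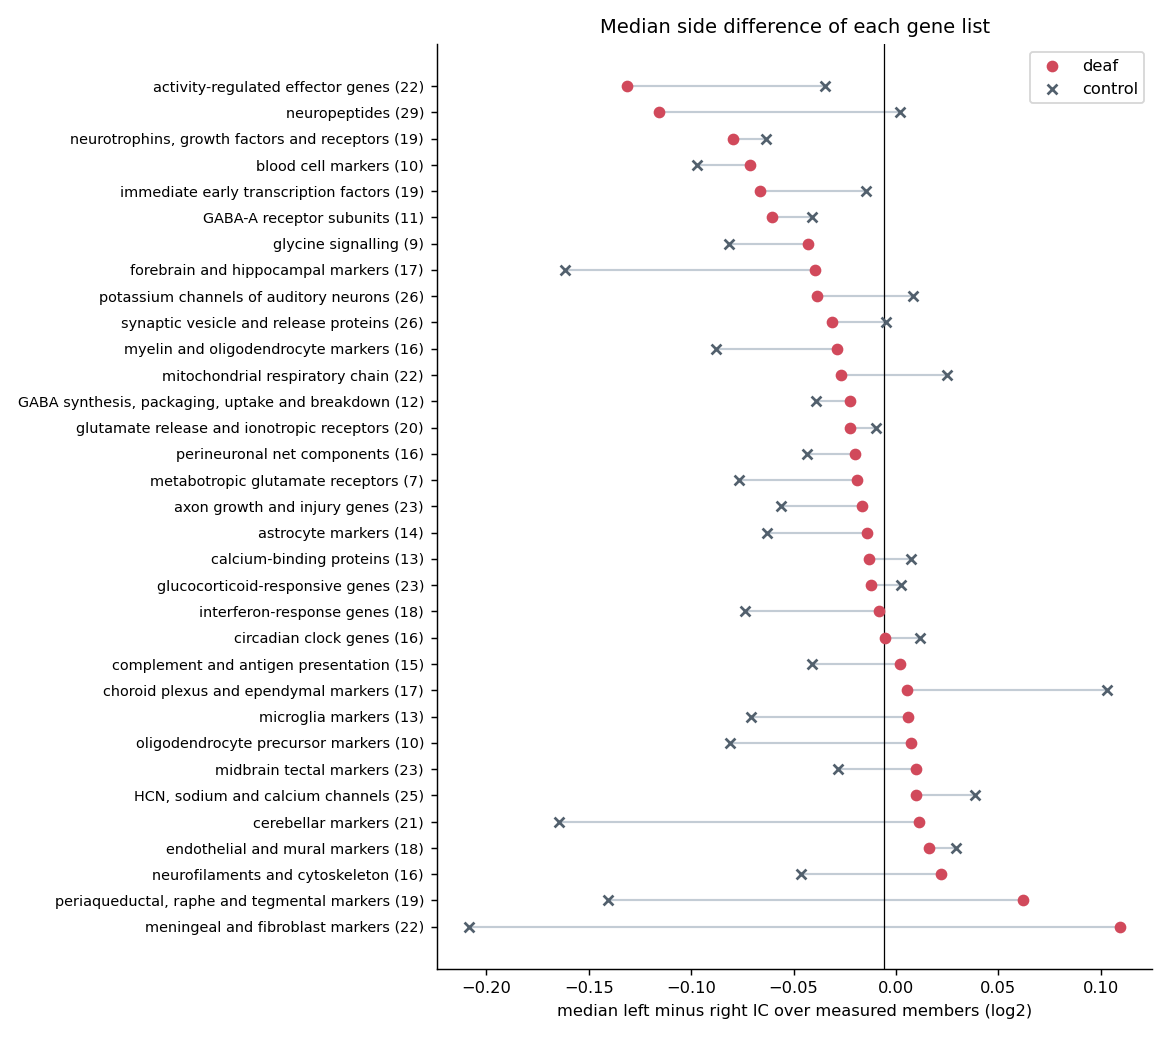
Median left minus right difference of each of the 33 gene lists (horizontal, log2), red points for deaf rats and grey crosses for sham-operated rats, with the number of measured genes in brackets and a line at the median of all genes in deaf rats, -0.01. Effectors and neuropeptides are lowest in deaf rats at -0.13 and -0.12, and meningeal markers highest at 0.11, with -0.21 in sham-operated rats.

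Markers of cell types and neighbouring tissue were set beside these differences, since fewer cells of a type and less RNA per cell cannot be told apart in bulk tissue. Astrocyte, microglia, oligodendrocyte precursor, endothelial, choroid and tectal lists had medians between -0.01 and 0.02, and myelin -0.03 with 12 of 16 lower. Forebrain, blood and periaqueductal lists had medians of -0.04, -0.07 and 0.06. Of all 12 marker lists, the members past an unadjusted p of 0.05 were Gjb1, Spink8 and Barhl2, higher on the left at 0.27 (SE 0.10), 0.38 (SE 0.13) and 0.31 (SE 0.13), and Lhx2, lower at -0.30 (SE 0.11). Over all genes 1.44% were higher and 1.90% lower at that threshold. Spink8 had the same side difference in sham-operated rats, 0.39, and was 0.23 in deaf rats without left deaf array 2, while the sham-operated values of Gjb1, Barhl2 and Lhx2 were 0.16, 0.07 and 0.07. Barhl2 counts in both the tectal and the cerebellar list.

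Meningeal and fibroblast markers varied most between arrays. Their list level was -0.07, 0.56 and -0.16 on the left and 0.08, 0.43 and -0.48 on the right deaf arrays, highest on array 2 of both sides. Of 22 members, 7 were lower on the left, the median was 0.11, and 0 passed an unadjusted p of 0.05. Without array 2 on both sides, Vgf differed by -0.79 and the effector list had a median of -0.12 with 17 of 22 lower. Cerebellar markers lay at -0.10, -0.04 and -0.03 on the left and -0.11, -0.11 and -0.15 on the right deaf arrays, below the 0.24, 0.08 and 0.46 of the right sham-operated arrays. Their part in the comparison with sham-operated rats was not tested.

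**Figure D5:**
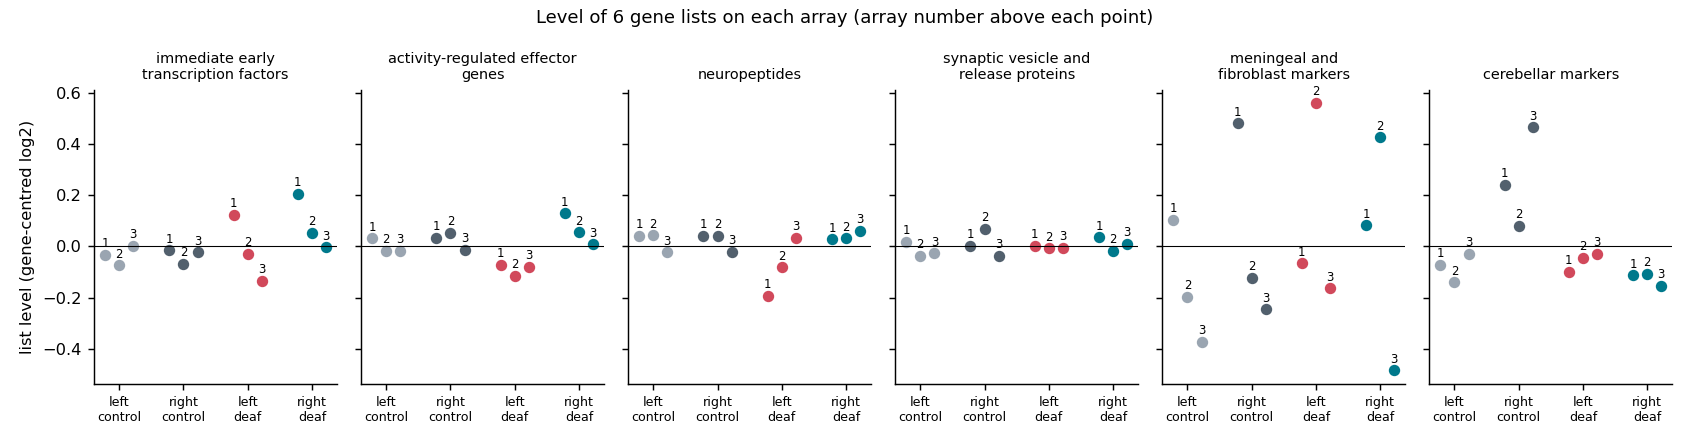
Level of 6 gene lists on each of the 12 arrays (vertical, mean of gene-centred log2 values), with the array number above each point. The effector genes separate left from right deaf arrays, and so do the cerebellar markers, in the other direction. The immediate early factors are highest on array 1 of both deaf sides. Meningeal markers are highest on array 2 of both, and cerebellar markers are highest on right sham-operated arrays.

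Whether the side difference was particular to deaf rats was tested as its difference from that of sham-operated rats. No gene passed an adjusted p of 0.05 in that test (limma, 0.00% called), the smallest adjusted p was 0.0926, for Mirlet7f2 at 0.80 (SE 0.10), and at an unadjusted p under 0.05 there were 304 lower (1.67%) and 318 higher (1.75%) genes. The Mirlet7f2 probe read 1.73 to 2.36 on the 12 arrays, whose lowest value was 1.33, and its adjusted p was 1.00 with a variance trend and robust estimation. Vgf had the lowest value among the bright genes named, -0.88 (SE 0.16), with an adjusted p of 0.711 (limma) and a side difference of 0.11 in sham-operated rats. Sprr1a had -0.65 (SE 0.18). Ankrd34c had -0.53 (SE 0.16), made of -0.27 in deaf and 0.26 in sham-operated rats. For Cdhr4 at -0.69 (SE 0.23) and Acbd4 at -0.53 (SE 0.18), most of the value came from sham-operated rats, whose side differences were 0.73 and 0.44. The same held for the 5 highest, Rpl10 at 0.52 (SE 0.15), Rpain at 0.54 (SE 0.18), Hrh3 at 0.53 (SE 0.23), Fmc1 at 0.54 (SE 0.24) and Siah2 at 0.51 (SE 0.25), with side differences of -0.42, -0.39, -0.28, -0.49 and -0.48 in sham-operated rats. The list medians of the difference between conditions were -0.09 for effectors, -0.08 for immediate early factors and -0.12 for neuropeptides. Over all genes the median was -0.004. Medians were -0.18 for choroid, 0.24 for cerebellar and 0.28 for meningeal markers.

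In the sham-operated rats themselves no gene passed an adjusted p of 0.05 (limma, 0.00% called, smallest adjusted p 0.477), with 471 lower (2.59%) and 429 higher (2.36%) at an unadjusted p under 0.05. Left and right sham-operated arrays did not overlap for 1780 genes (9.80%). Arrays of both conditions failed to overlap in the same direction for 99 genes (0.545%) and in opposite directions for 56 (0.308%). Among the former were Gabra5 and 3 bright genes chosen after their values were seen. Tmem9b differed by -0.22 in deaf and -0.22 in sham-operated rats, Fgf9, a growth factor of neurons and glia, by -0.24 and -0.14, and Thra, the thyroid hormone receptor alpha gene, by 0.14 and 0.21. Across all genes the side differences of deaf and sham-operated rats had a Pearson correlation of 0.06, and of 0.14 among the 9083 bright genes, a description over genes, which are not independent.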

How the data were processed

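Total RNA of the IC was extracted with Trizol, and biotin-labelled cDNA was hybridised to 1-colour Affymetrix arrays, per the labels' protocols. The deposited values were log2 intensities normalized by the authors, running from 1.33 to 13.1 with a median of 5.34 on every array. No source used here names the array model or the software that summarised the probes. Of 29489 probes, the 18511 with 1 gene symbol in the platform annotation were used, 575 had several and 10403 none, and where several probes named a gene (291 genes) the brightest over all 12 arrays was kept. Arrays correlated with each other at 0.982 to 0.993, and precision is limited by their number.

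A model of 4 group means over 12 arrays was fitted with limma 3.58.1 in R 4.3.3 (lmFit, eBayes, 8 residual degrees of freedom), with contrasts left minus right in deaf rats, in sham-operated rats, and the difference between them. All tests were two-sided, with p-values adjusted by Benjamini-Hochberg over 18166 genes at a threshold of 0.05, and the fit was tested on simulated data. Differences are on the log2 scale.

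The comparison and the gene lists were chosen with earlier results of these data known. Genes were named by the smallest unadjusted p among those with non-overlapping deaf arrays and a difference of at least 0.3, up to 12 bright and 4 dim genes per direction, up to 5 per direction for the difference between conditions at 0.5 or more, and up to 4 members per list. The rule passes over predicted or unnamed genes, microRNAs, and olfactory or vomeronasal receptors. Not all list members the rule allows are printed. Named outside the rule, after their values were seen, were Egr2, Arc, Npas4, Atf3, Bdnf, Inhba, Nmb, Vip, Pnoc, Nts, Pdyn, Npy, Nptx1, Or52a5b, Mirlet7f2, Tmem9b, Fgf9 and Thra, and the tissue markers given by level. Lists were described by counts and medians, with no test. Alternatives covered normalization, the filter on dim genes, the probe per gene, the variance model, array weights, the arrays in the fit, a replicate block and leaving out arrays.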

Additional observations from a re-analysis of the deposited data

How the results depend on the processing

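The signs of the differences given for named genes and of the medians of the immediate early, effector and neuropeptide lists were the same under all alternatives run. Genes past an adjusted p of 0.05 (limma) in deaf rats numbered 0 in the reported fit, 1 among genes at or above the median level (Vgf) and 2 with a variance trend and robust estimation (Vgf and Or52a5b). They numbered 0 in the other settings, including an adjusted p of 0.10, at which the difference between conditions gave 1 gene, Mirlet7f2. Testing only the 9083 bright genes, in place of 18166, left 167 lower and 104 higher genes in deaf rats at an unadjusted p under 0.05. The counts were 179 and 227 in sham-operated rats, and 148 and 94 for the difference between conditions. Leaving out 1 array at a time gave 311 to 423 lower and 231 to 361 higher genes in deaf rats. In sham-operated rats it gave 379 to 930 lower and 315 to 930 higher, with both maxima without right control array 1. For the difference between conditions it gave 264 to 591 lower and 270 to 553 higher, again with both maxima without that array, and the cause was not tested. Array weights gave 689 lower and 646 higher genes in sham-operated rats. Leaving out deaf array 3 on both sides, an alternative added after seeing the data, moved the effector median to -0.19, with 20 of 22 members lower.

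With the replicate number as a block, 0 genes passed an adjusted p of 0.05 (Vgf 1.00, and Mirlet7f2 0.657 for the difference between conditions), and 366 were lower and 296 higher at an unadjusted p under 0.05 in deaf rats. Deviations of same-numbered left and right deaf arrays correlated at -0.06 to 0.15, and 1 of 3 left arrays correlated best with its own number. Among sham-operated arrays the range was -0.01 to 0.10, and 2 of 3 did. Fos and the immediate early and meningeal list levels ranked alike by array number on both deaf sides. These values cannot settle whether equal numbers share rats. The reported fit held no pairing because the labels do not state it. With 3 arrays a group and a median standard error of 0.12, most of the side differences given here were below the size that the simulated fit called reliably.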
